A study of Mus musculus with 15 samples.

Results

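A set of 9 stress genes under p53 was followed across liver, spleen and thymus: Zmat3, Phlda3, Trp53inp1, Dyrk3, Ier5, Aen, Rps27l, Ei24 and Epha2. They are p53 targets that were chosen by the high scores of their regions in these same lists. All regions inside them or within 20 kb of them were taken, which gave 15 of the 4137 distinct regions of the series, next to 9 of 21887 coding genes. The liver list held all 15, the spleen list 14 and the thymus list 13. The scores chose the genes, so ranks below are a description and carry no test.

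The study used chromatin immunoprecipitation sequencing (ChIP-seq), which reads the DNA that an antibody pulls down together with a protein, here p53 by the series title. Its 15 libraries came from wild-type mice. Each organ had 2 libraries from untreated animals, 2 from animals given 2 Gy of X-rays 3 h earlier, and 1 input library of chromatin without antibody. Strain, age and antibody are not given in the labels. Each organ has 1 region list, of 3872 regions in liver, 2604 in spleen and 2405 in thymus. The labels attach that list to all 5 libraries of the organ. Its name speaks of irradiation and of IgG, a nonspecific antibody, and no library is labelled IgG. Which libraries entered a list is not given, so irradiated and untreated animals cannot be compared, and no spread between replicates is known. Whether the dissected organs hold the cell types their names imply cannot be checked in region lists.

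In unstressed cells p53 is kept scarce by Mdm2. Radiation damage stabilises it, and it then binds DNA as a tetramer at paired decamers, each built of purines, a C and a G around a pair of A or T bases, and pyrimidines. Beyond cell cycle arrest and the Bcl2 family, its targets include nucleases, autophagy factors, inhibitors of growth signalling and RNA-binding proteins. The lymphoid cells of spleen and thymus die readily after radiation, and hepatocytes do so far less.

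Of the 7 genes with a listed RefSeq start site, 5 had a region lying over one. These stretches are shown because signal and sequence can be set side by side there. All coordinates are mm10. The strongest match to paired decamers was at Rps27l. In the first 2 lines, 30 bases around the best pair are printed with both decamers in capitals. The next line gives the bases before the Ei24 start that lie inside its region, with an exact single decamer in capitals. The last 2 lines give the 250 bases before the starts of Phlda3 and Dyrk3, with the best pair in capitals.

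Rps27l, chr9:66946291-66946320, plus strand: atggcGGGCTTGTTGAGACTTGTCCgggcg
Aen, chr7:78895932-78895961, plus strand: aagccGGGCTTGTCCGGGCAAGGAGcttcc
Ei24, chr9:36797335-36797550, minus strand: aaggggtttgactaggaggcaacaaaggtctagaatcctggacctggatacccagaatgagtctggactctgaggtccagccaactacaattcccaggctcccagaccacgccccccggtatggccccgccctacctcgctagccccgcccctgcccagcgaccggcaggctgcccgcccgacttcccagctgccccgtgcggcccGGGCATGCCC
Phlda3, chr1:135765835-135766084, plus strand: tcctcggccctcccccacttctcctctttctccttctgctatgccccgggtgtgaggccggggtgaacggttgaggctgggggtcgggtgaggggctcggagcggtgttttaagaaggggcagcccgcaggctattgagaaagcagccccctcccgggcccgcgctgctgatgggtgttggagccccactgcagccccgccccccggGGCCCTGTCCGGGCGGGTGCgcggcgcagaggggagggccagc
Dyrk3, chr1:131138235-131138484, minus strand: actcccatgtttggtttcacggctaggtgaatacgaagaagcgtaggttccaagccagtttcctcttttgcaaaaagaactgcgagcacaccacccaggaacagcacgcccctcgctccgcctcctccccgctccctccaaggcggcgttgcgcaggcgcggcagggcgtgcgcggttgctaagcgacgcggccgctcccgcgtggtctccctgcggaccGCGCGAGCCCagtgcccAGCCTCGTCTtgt

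The Rps27l pair lay in the window of the second of the gene's 2 listed starts, with 1 mismatch to the consensus and no spacer. Of all 32851 promoter windows of 300 bases, 0.627% held a pair at least that close. That share was 0.814% among windows overlapped by a liver region, 2.37% for spleen and 2.37% for thymus. This window held 2 exact decamers, 1 of them part of the printed pair, and 8.36% of all windows held at least 1. At the first start the best pair had 3 mismatches and lay outside the region. Of all windows, 15.6% held a pair at least as close as that one. The window of the first start held no exact decamer.

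At Aen the pair had 3 mismatches and no spacer, and 15.6% of windows matched as closely. One of its decamers was exact, 10 bases downstream of the first of the gene's 2 listed starts. The exact Ei24 decamer ended at the base before the start site. An exact decamer was found in 6.07% of all windows cut to the same 216 bases. The best Ei24 pair in the full window had 4 mismatches and a spacer of 11 bases, and 40.4% of windows matched as closely. Phlda3 and Dyrk3 had no exact decamer. Their best pairs had 5 and 4 mismatches, found in 61.6% and 34.6% of windows cut to the same 250 bases, so these letters set neither gene apart. The printed stretches cover only part of the Phlda3 region and a small part of the Dyrk3 region. Sequence outside the windows was not analysed here. A match is a description of letters and not a measured binding site.

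The windows of these 5 genes were rich in G and C. Their GC content ran from 58.0% at the first Aen start to 71.7% at Phlda3, against a median of 52.7% over all windows. Windows overlapped by a region had medians of 66.0% in liver, 65.0% in spleen and 65.0% in thymus. The 5 genes thus lay around the level of other promoters that carry regions.

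Of the 7 genes with a listed start, 5 had a region on the promoter window in each organ. Over coding genes with a listed window, that share was 7.99% in the liver list, 2.28% in spleen and 1.93% in thymus. The genes were picked for their regions, so nothing is read from this promoter contrast. Of the 7, Ier5 and Epha2 had their regions elsewhere. The Ier5 promoter window held 1 exact decamer and no region. Zmat3 and Trp53inp1 had no listed window.

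Within 20 kb, all 9 genes had a region in liver and spleen, and 8 of 9 in thymus, where Ier5 had none. The background, over coding genes, was 22.3% for the liver list, 12.8% for spleen and 11.6% for thymus. Because the genes were picked for their regions, nothing is read from that contrast. There were 6 genes with 1 region, while Zmat3 and Phlda3 had 2, and Trp53inp1 had 5. Of the 15 regions, 3 lay inside a gene, 5 crossed a gene end and 7 lay outside.

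**Figure D1:**
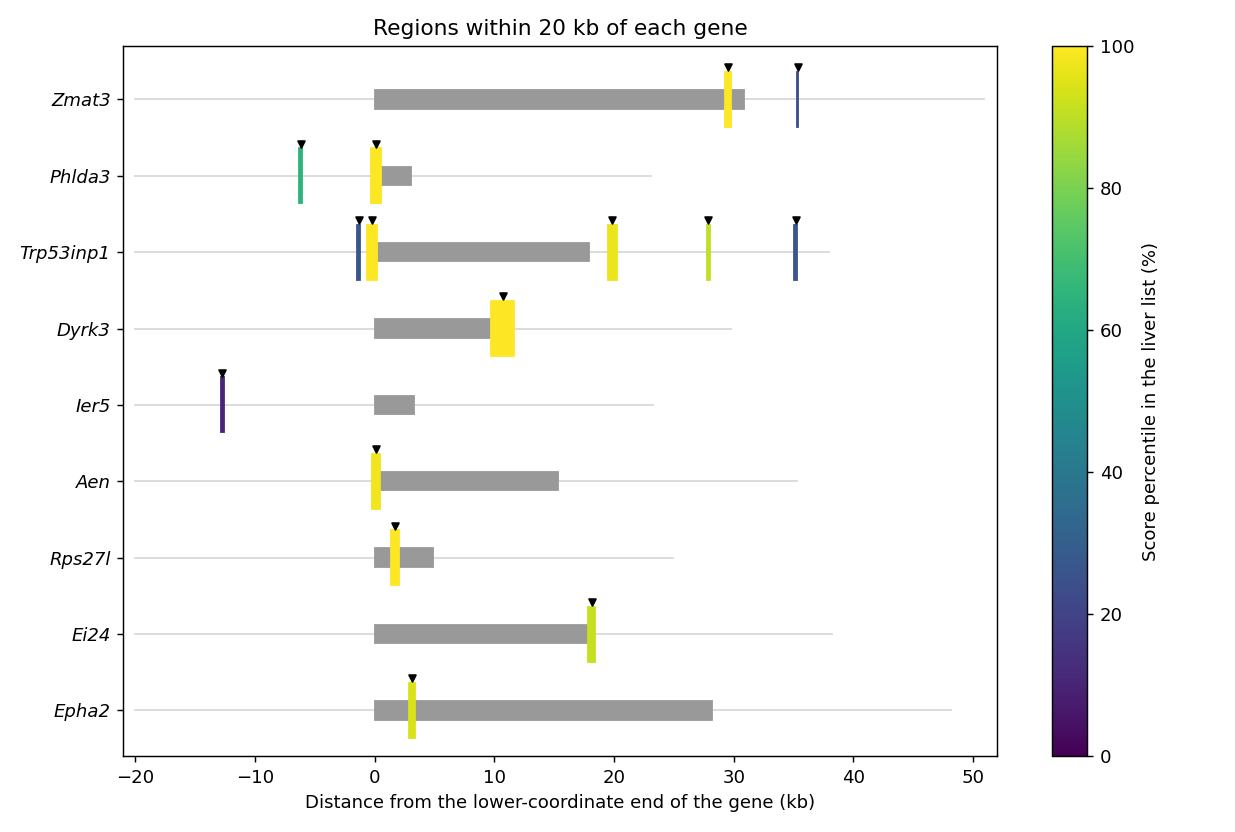
Position of the 15 regions (coloured blocks, marked by triangles) relative to each gene (grey bar), in kb from the end of the gene with the lower coordinate; thin lines show the 20 kb on each side, and colour is the score percentile in the liver list. Trp53inp1 has 5 regions, and the region of Ier5 lies 12617 bp outside the gene with a low percentile.

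Scores are given as the authors deposited them, with their percentile among all regions of the same list. No list goes below a score of about 7, and the highest scores were 51.8 in liver, 35.0 in spleen and 30.7 in thymus. Scores are therefore compared between organs only as percentiles.

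A pair of genes acts on RNA and the ribosome. Zmat3 encodes an RNA-binding zinc finger protein that regulates splicing. It had a 450 bp region inside the gene (chromosome 3, 32364101 to 32364550), 1340 bp from the nearer gene end. Its score was 47.5 in liver (percentile 99.8), 34.9 in spleen (99.6) and 30.7 in thymus (99.8). The thymus score was the highest of that list, shared by 9 regions. It ranked 6 in liver and 8 in spleen, and its 3 percentiles lay within 0.237 points of each other.

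A second Zmat3 region of 50 bp lay 4436 bp outside the gene (32370101 to 32370150). It ranked low, with scores of 15.7 in liver (percentile 23.1), 18.2 in spleen (42.7) and 13.2 in thymus (33.9). The nearest other annotated gene to both was the noncoding 4930429B21Rik, 939 and 2663 bp away. The nearest other coding gene, Pik3ca, began 32515 and 26915 bp away.

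Rps27l encodes a ribosomal protein that differs from its paralog Rps27 by few residues. Its 650 bp region (chromosome 9, 66946001 to 66946650) lay inside the gene and held both listed starts. The score was 42.3 in liver (percentile 99.5), 30.4 in spleen (93.2) and 20.4 in thymus (69.0). The rank was thus highest in liver and lowest in thymus, unlike that of Zmat3. The closely matched decamer pair printed above lies in this region.

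A group of 3 genes acts in growth and kinase signalling. Phlda3 encodes a small protein with a pleckstrin homology domain that competes with Akt for membrane lipids. Its main region of 850 bp (chromosome 1, 135765801 to 135766650) covered the start site, with its midpoint 140 bp downstream. The scores were 41.5 in liver (percentile 99.3), 32.1 in spleen (97.6) and 28.9 in thymus (98.4). Like Zmat3, it stood near the top of every list.

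A second Phlda3 region of 250 bp lay 6035 bp outside the gene (135759801 to 135760050). Its scores were 23.97 in liver (percentile 64.6), 19.6 in spleen (48.7) and 11.3 in thymus (24.8). Its percentile was highest in liver and lowest in thymus, while those of the main region lay within 1.73 points of each other. Csrp1, the nearest other coding gene, was 7572 bp from it.

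Dyrk3 encodes a kinase that dissolves stress granules and other condensates. Its region was the widest of the 15 at 1850 bp (chromosome 1, 131138201 to 131140050), and reached from the start site upstream, with its midpoint 891 bp before the start. The scores were 47.5 in liver (percentile 99.8), 32.8 in spleen (98.2) and 27.8 in thymus (96.3). Dyrk3 and Zmat3 had the same liver score, which 4 regions shared.

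Epha2 encodes a receptor tyrosine kinase for ephrin-A ligands. Its 450 bp region (chromosome 4, 141304101 to 141304550) lay inside the gene, 3104 bp downstream of the start. The scores were 31.6 in liver (percentile 94.3), 32.1 in spleen (97.6) and 22.1 in thymus (76.1). Spleen ranked highest here. The next coding gene was 46186 bp away, beyond the distance used.

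Another 3 genes act in cell death and autophagy. Trp53inp1 encodes a stress-induced protein that binds p53-modifying kinases and takes part in autophagy. It had a region across its lower-coordinate end and 4 outside the gene. The 850 bp region across the end (chromosome 4, 11155801 to 11156650) scored 47.6 in liver (percentile 99.9), 28.5 in spleen (86.3) and 21.5 in thymus (73.9). A 750 bp region 1522 bp beyond the other end (11175901 to 11176650) scored 34.7 in liver (97.0), 30.01 in spleen (92.4) and 25.7 in thymus (89.0). The leading region therefore changed from the first in liver to the second in both lymphoid organs.

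The 3 remaining Trp53inp1 regions were each 250 bp wide. One lay 9822 bp outside the gene (11184201 to 11184450) and scored 29.5 in liver (percentile 90.3), 23.9 in spleen (68.6) and 19.5 in thymus (65.1). Another, 1191 bp outside (11155001 to 11155250), scored 16.3 (26.3), 15.9 (34.8) and 14.6 (41.5) in the same order of organs. Its rank order ran opposite to that of its neighbour across the gene end. The last, 17122 bp outside (11191501 to 11191750), was in the liver list alone with a score of 16.2 (25.9), and lay inside Ccne2, the gene of cyclin E2. The regions at 11175901 and 11184201 overlapped the noncoding gene A630034I12Rik. Including Trp53inp1, 5 of all coding genes had at least 5 liver regions within 20 kb, or 0.0228%.

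Aen encodes a nuclease that promotes apoptosis. Its 650 bp region (chromosome 7, 78895701 to 78896350) covered both listed starts. The scores were 36.5 in liver (percentile 97.9), 29.1 in spleen (89.0) and 17.4 in thymus (55.4). The difference between liver and thymus was the widest of the 13 regions that all 3 lists held. The region also overlapped the noncoding gene Gm39039, and the coding gene Isg20, a nuclease paralog, lay 17046 bp from it.

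Ei24 encodes a membrane protein of the endoplasmic reticulum that is needed for autophagy. Its 550 bp region (chromosome 9, 36797001 to 36797550) covered the start, with the midpoint 59 bp downstream. The scores were 29.9 in liver (percentile 91.2), 29.9 in spleen (92.0) and 20.6 in thymus (70.2). Liver and spleen ranks were close, and thymus lay below both.

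Ier5, an immediate early gene whose product promotes the activity of the heat shock factor HSF1, did not match the description of a highly ranked target within 20 kb. Its sole region there was 250 bp wide (chromosome 1, 155083501 to 155083750) and lay 12617 bp outside the gene, 237 bp from the noncoding gene Gm9530. It scored 11.4 in liver (percentile 10.3) and 8.21 in spleen (6.84), and was not in the thymus list. It was the lowest of the 15 regions in both lists.

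A region beyond the distance limit ranked far higher. It spanned 1250 bp (chromosome 1, 155055501 to 155056750), 39617 bp from Ier5. The score was 47.6 in liver (percentile 99.9, rank 3), 32.1 in spleen (97.4, rank 69) and 29.5 in thymus (99.4, rank 12). Ier5 was the nearest coding gene, followed by Mr1 at 71124 bp. Only 1 other region lay between 20 and 50 kb from any of the 9 genes. It was 31336 bp from Zmat3, inside Pik3ca, and had a liver percentile of 10.5. These were looked at after the values within 20 kb had been seen.

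**Figure D2:**
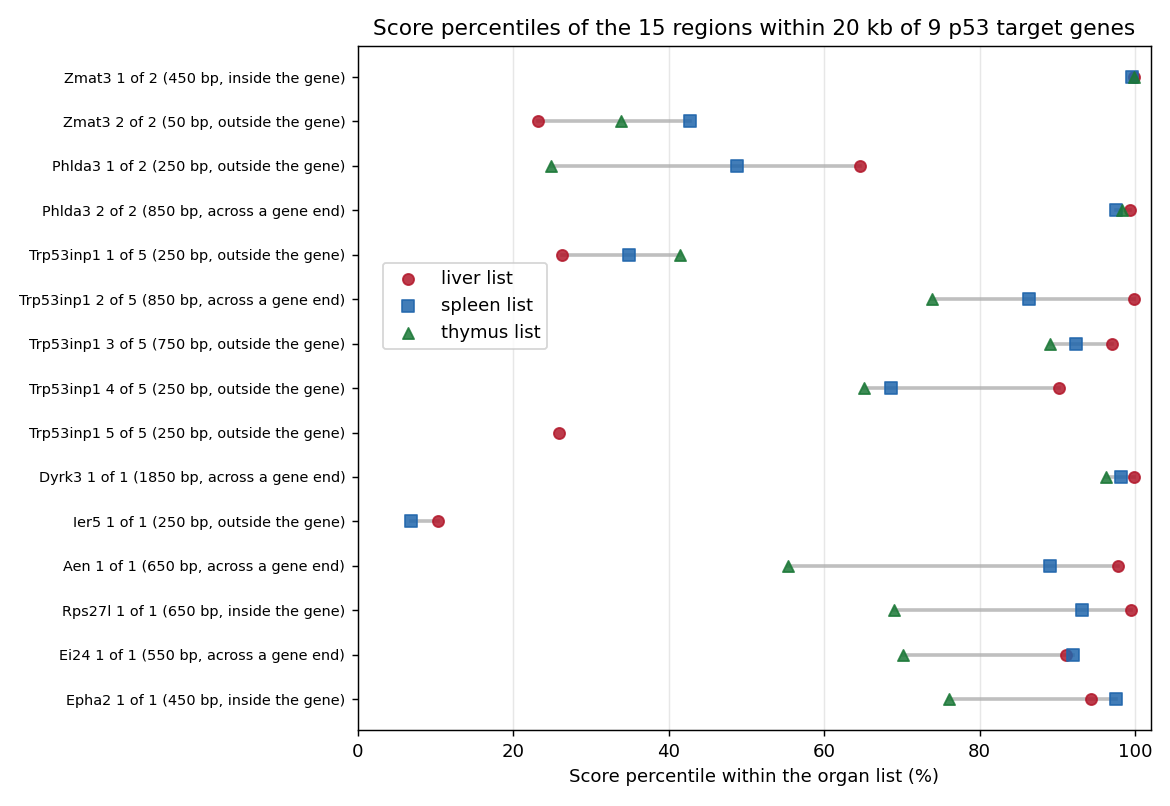
Score percentile (x axis, %) of each of the 15 regions (rows, named by gene with width and place) in the liver (circles), spleen (squares) and thymus (triangles) lists; grey lines join the lowest and highest value. Zmat3, Phlda3 and Dyrk3 have 1 region each above 95 in all 3 lists, and Aen spans 55.4 to 97.9.

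Seen after the values were known, the regions sorted into 3 tiers of rank. Those of Zmat3, Phlda3 and Dyrk3 were at or above percentile 95 in every list, as were 35 of the 1930 regions that all 3 lists held, or 1.81%. Both wide regions of Trp53inp1 and those of Rps27l, Aen, Ei24 and Epha2 were above 90 in liver and below it in thymus. The remaining 6 regions were 250 bp wide or less. With the spleen and thymus ranks of the latter between 6.84 and 68.6, only the Trp53inp1 region at 11184201 reached 90 in any organ.

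Of the 15 regions, 13 were in all 3 lists, a share of 86.7%, compared with 46.7% of the 4137 distinct regions. Over those 13, the median liver percentile was 97.0 and the median thymus percentile 70.2. The median difference, liver minus thymus, was 18.2 points, and 10 of 13 were above 0. Over all 1930 regions in the 3 lists the median difference was -2.92 points, with quartiles of -27.8 and 20.5, and 873 of them (45.2%) were above 0. Since the genes were picked for high ranks, no test was run on this contrast. Liver minus spleen gave a median of 1.73 points for the 13 regions and -4.21 for all, and spleen minus thymus 8.85 and 1.16.

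The difference between liver and thymus varied between genes. It was 42.5 points at Aen, which 86.7% of the 1930 regions did not exceed, and 39.8 at the outer Phlda3 region. Rps27l had 30.5 points, the Trp53inp1 end region 26.1, the Trp53inp1 region at 11184201 25.2, Ei24 21.0 and Epha2 18.2. All of these were above the upper quartile of the shared regions except Epha2, which was below it. The genes were picked for high ranks, and a region near the top of the liver list has little room to rank higher in thymus. These placements are therefore a description only. The Trp53inp1 region at 11175901 had 7.99 points. The main regions of Dyrk3 (3.53 points), Phlda3 (0.950) and Zmat3 (-0.00155) had nearly the same rank in both organs. A higher rank in thymus was seen for the outer Zmat3 region (-10.8 points) and for the Trp53inp1 region at 11155001 (-15.2).

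**Figure D3:**
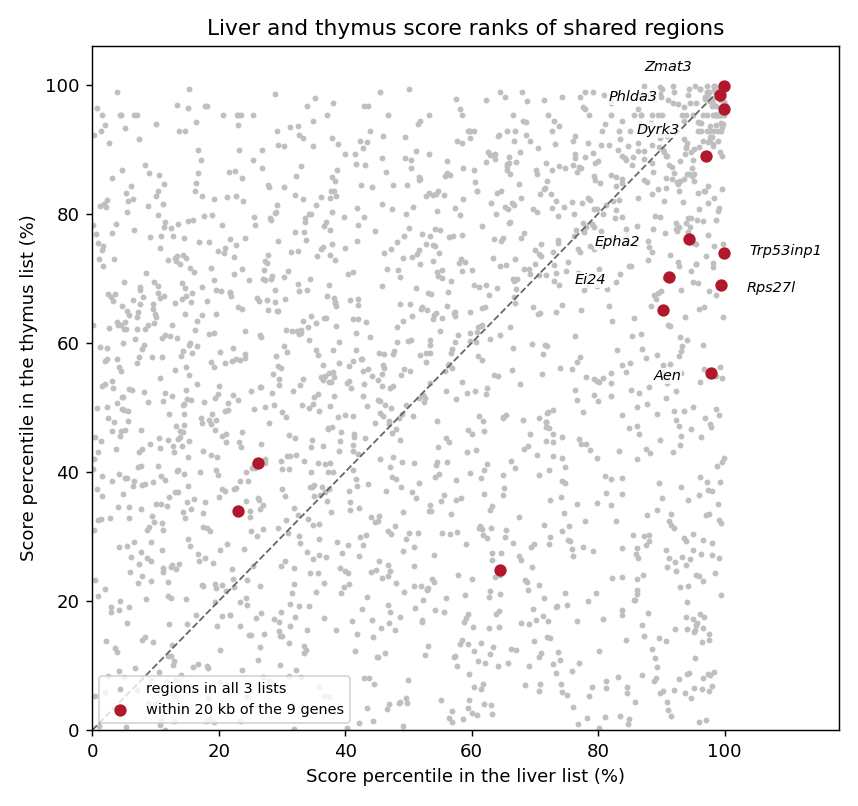
Score percentile in the liver list (x axis, %) against that in the thymus list (y axis, %) for the 1930 regions in all 3 lists (grey) and the 13 of them near the 9 genes (red; the region with the highest liver percentile of each gene is named); the dashed line marks equal percentiles. Zmat3, Phlda3 and Dyrk3 sit at the upper right corner, and Aen, Rps27l and Trp53inp1 lie below the line.

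In liver the wider regions had the higher ranks. Regions of 450 bp or more made up 9 of the 15, compared with 10.01% of all distinct regions, and the median width was 450 bp compared with 150 bp. Score and width rise together and the genes were picked for score ranks, so nothing is read from that contrast. The 9 wider regions had liver percentiles from 91.2 to 99.9, spleen percentiles from 86.3 to 99.6 and thymus percentiles from 55.4 to 99.8. The 6 narrower ones ran from 10.3 to 90.3 in liver, from 6.84 to 68.6 in spleen and from 24.8 to 65.1 in thymus. In thymus the width classes thus overlapped, with the 650 bp Aen region (55.4) below a 250 bp Trp53inp1 region (65.1). Across all regions, score and width had a Spearman rho of 0.442 in liver (n = 3872), 0.421 in spleen (n = 2604) and 0.446 in thymus (n = 2405), over regions that share a list and its depth. Regions were matched between lists by identical coordinates, so a shared region has the same width in every list by construction. The part of width in the differences between organs was not tested. By width, Aen stood at percentile 97.9 in liver and 97.3 in thymus, where its scores gave 97.9 and 55.4.

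**Figure D4:**
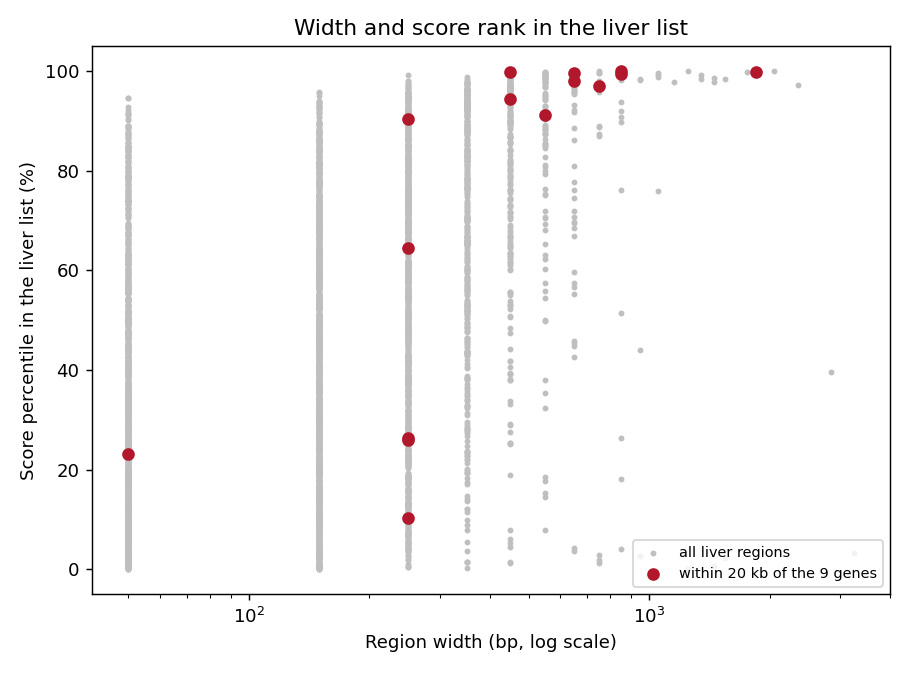
Region width (x axis, bp, log scale) against score percentile in the liver list (y axis, %) for all 3872 liver regions (grey) and the 15 near the 9 genes (red). The 9 regions of 450 bp or more all lie above 91 on the y axis.

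Other genes of the p53 pathway were read in the same way, from a list of 61 of which 60 matched a coding gene. A region within 20 kb was found for 44 in liver, 39 in spleen and 33 in thymus, or 73.3%, 65.0% and 55.0%, where coding genes in general gave 22.3%, 12.8% and 11.6%. The median best percentile of those with a region was 72.9, 58.3 and 63.3, and that of all such coding genes 57.0, 44.2 and 44.8. For the 9 genes it was 99.3, 93.2 and 82.5, which their choice by rank fixes. Since the best regions of 8 of the 44 pathway genes lay nearer to another coding gene, the counts include regions of uncertain ownership. The pathway list was also drawn up with earlier results of these data known, so its counts are a description.

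The pathway genes with the highest ranks were the apoptosis genes Bbc3 (percentiles 99.99, 98.5 and 99.8 in liver, spleen and thymus) and Bax (99.9, 97.6, 95.4), and the arrest gene Cdkn1a (99.6, 95.4, 98.9). Notch1 and the p53 inhibitor gene Mdm4 followed, then Psrc1, the cyclin G gene Ccng1, Xpc, Pmaip1 and Gdf15. Of the 60 genes, 7 had a mean best percentile of 90 or more over the 3 lists, as did 4 of the 9. Of all coding genes, 158 did (0.722%), with a list without a region counted as 0. The 9 were chosen by rank, so nothing is read from their count. The best regions for Xpc and Gdf15 lay nearer to Tmem43 and Pgpep1.

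The rank pattern of each gene was set beside those of the 32 pathway genes with a region in all 3 lists, by the largest difference over the 3 best percentiles. Bbc3 was closest to Zmat3, at 1.09 points, and to Phlda3, at 1.46. Bax was closest to Dyrk3, at 0.936 points. Ccng1 was closest to Trp53inp1, at 5.01. The best percentiles were taken list by list, and those of Trp53inp1 join different regions. Its liver value is from the region across the gene end, and its spleen and thymus values are from the region at 11175901. Gdf15 (percentiles 99.7, 97.6 and 64.0) was closest to the other genes with a region in all 3 lists, at 5.05 points for Rps27l, 8.56 for Ei24, 8.59 for Aen and 12.1 for Epha2. With 3 values per gene this likeness is coarse.

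Paralogs of the 9 genes had regions about as often as other genes. Of 29, 7 had one within 20 kb in liver (24.1%), 4 in spleen (13.8%) and 4 in thymus (13.8%), close to the 22.3%, 12.8% and 11.6% of all coding genes. None of the 13 other Eph receptor genes had a region in any list, nor did the 4 other Zmat genes. The highest rank belonged to Isg20, whose region is the one at the Aen start. The others were Dyrk1b, Dyrk4, Dyrk1a, Phlda1, Rps27 and Isg20l2, with liver percentiles from 2.66 at Dyrk1a to 76.6 at Dyrk4. Those of Dyrk4, Rps27 and Isg20l2 lay nearer to Rad51ap1, Jtb and Rrnad1. Rps27l stood at 99.5 in liver, and Rps27 at 66.0 through a region 17953 bp outside the gene.

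**Figure D5:**
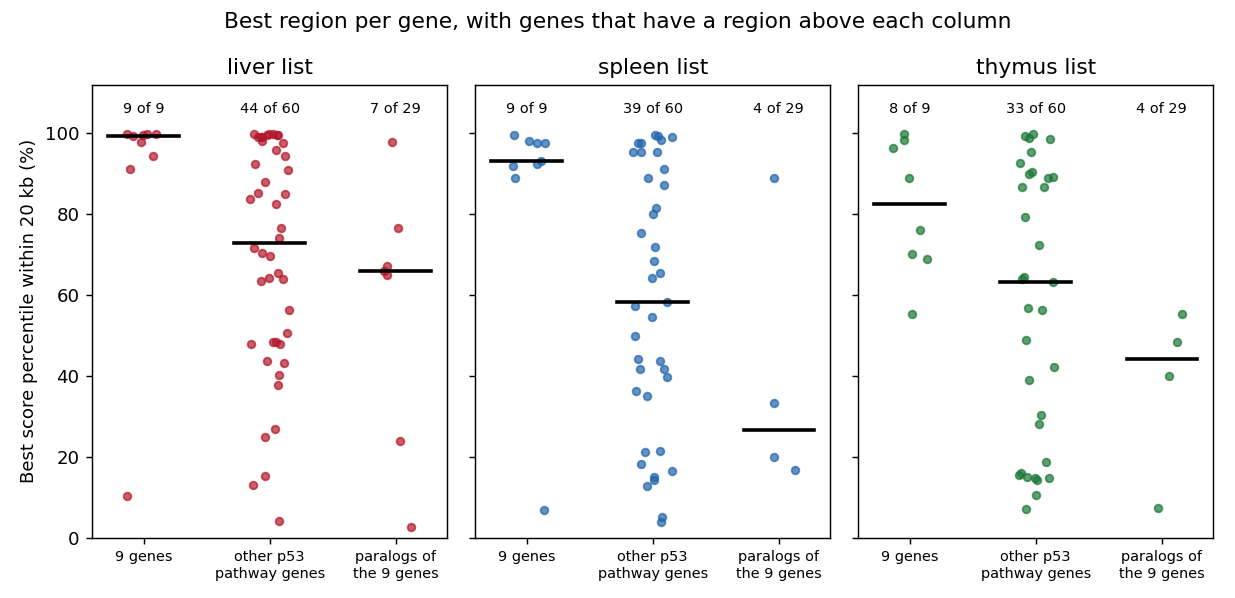
Best score percentile within 20 kb (y axis, %) of each gene that has a region, for the 9 genes, the other p53 pathway genes and the paralogs, in the 3 organ lists; bars are medians and the numbers above give genes with a region out of genes matched. The single low point of the 9 genes in liver and spleen is Ier5.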

How the data were processed

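Chromatin immunoprecipitation sequencing of p53 was deposited as 3 region lists, 1 per organ. Each list gives a position and a score per region, and the score is the authors' deposited value. Positions are on mm10, per the submitters' processing notes. Not given in the sources used here are the scale of the score, the software that called regions, its threshold and the aligner.

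Starts were converted to 1-based positions. Scores were turned into percentiles within each list, with ties averaged. A region counted as held by several lists only where its chromosome, start and end were identical in them. Regions were kept when any base lay inside a gene or within 20 kb of it, using RefSeq genes on GRCm38.p6, which is mm10. Start sites and sequences came from the RefSeq promoter table of the same build, which spans 250 bases before to 50 after a start. The p53 decamer consensus was searched in these windows; it reads the same on both strands. Pairs of decamers were allowed a spacer of 0 to 13 bases, and the fixed C and G of each had to be present. Functions were tested on simulated regions and sequences (Python 3.11.15, pandas 2.3.3, numpy 2.4.6, scipy 1.17.1).

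The 9 genes and the gene lists were chosen with earlier results of these data known, and the 9 genes for their score ranks, so no test was run on their scores. Genes named from the pathway list were the 10 with the highest mean of their best percentiles, plus the gene most alike to each of the 9. From the paralog list, all genes with a region were named. Replicates cannot be compared, as an organ has a single list, and read depth is unknown. Alternatives were other distances, shortened lists, other treatment of ties, and ranking by width.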

Additional observations from a re-analysis of the deposited data

How the results depend on the processing

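The number of the 9 genes with a region, the number of regions near them and the pathway counts stayed within 1.5 times their values at distances of 5, 10 and 50 kb. Shortening the lists to the 2405 highest-scoring regions moved none of the 13 counts and shares by more. It moved 5 of 24 best percentiles, all of them in liver, with Ei24 going from 91.2 to 85.8. With the upper 50% of each list, the pathway list had 22 genes in spleen and 19 in thymus, and the paralog list 1 in each. The share of coding genes with a region was then 12.7%, 5.80% and 5.22% in liver, spleen and thymus. Distances of 5 and 50 kb gave shares of 8.11% and 20.9% in spleen and 7.17% and 19.2% in thymus. The paralog list had 3, 1 and 2 genes at 5 kb and also at 10 kb in liver, spleen and thymus, and 7 in thymus at 50 kb. In the upper 50%, which removes low ranks by construction, percentiles were lower, at 10.8 for Aen and 38.1 for Rps27l in thymus; Ier5 had no region left. Treatment of ties moved none of 26 best percentiles beyond counting error, and ranking by width moved 23. Ranking within the 1930 shared regions, chosen after seeing the data, kept the sign of all 13 differences between liver and thymus, with 46.3 points at Aen. It moved 6 of the 13. The outer Zmat3 region went from -10.8 to -4.20 points and the Trp53inp1 region at 11155001 from -15.2 to -9.17. The others that moved were higher in liver and grew. No paired analysis was possible because the lists hold no values per library. Read depth is unknown, so a region missing from a list may lie below its score threshold.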
